A study of Danio rerio with 8 samples.

Results

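The genes described here encode parts of the machinery that licenses and fires replication origins: the helicase subunits mcm2, mcm3, mcm4, mcm5, mcm6 and mcm7, the replication factor mcm10, the GINS subunit gins2, the origin recognition subunit orc1 and the loading factor cdc6. Members were all probe sets whose gene symbol in the array's annotation is one of these 10. They covered 9 of the 10 genes with 10 of the 15502 probe sets, since mcm3 had a pair of them and each other gene 1, and mcm10 was not analysed here. Expression was measured in whole-retina RNA of zebrafish (Danio rerio) on Affymetrix arrays, 4 from the light lesion group and 4 from the control group. All fish were albino, which lets intense light reach and damage the photoreceptors, and all were first adapted to the dark. The light lesion group was then kept for 72 h under constant bright light before RNA isolation, and the control group went back to normal lighting and was not lesioned. The labels give neither the age of the fish nor how many contributed to a sample, so the p-values describe the spread between these arrays, which may be technical. Light exposure and photoreceptor damage cannot be told apart in this design.

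In every eukaryotic cell cycle, the origin recognition complex (Orc1 to Orc6) marks the sites where replication can start, and with Cdc6 and Cdt1 it loads the ring of Mcm2 to Mcm7 onto DNA in G1. At the start of S phase, kinases activate the ring, and Cdc45 and the GINS complex join it to form the working helicase, with Mcm10 needed for its activation. Their transcripts are known as markers of cells that are in or about to enter the cycle. In the adult zebrafish retina such cells include the stem cells of the ciliary margin, rod progenitors and, after photoreceptor loss, Müller glia and the progenitors they give rise to. Microglia can divide as well, and whole-retina RNA does not show which of these cells a transcript came from.

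The 8 arrays had medians between 7.62 and 7.69 on the log2 scale and correlated at 0.991 to 0.998 within a group and 0.958 to 0.968 between groups, over probe sets. The tissue label was borne out by the photoreceptor markers, whose mean log2 level ran from 12.17 to 12.39 in light lesion arrays and from 13.50 to 13.58 in control arrays. Of 11 such markers 9 fell after the lesion, beside 20.1% of all genes lower, and the median log2 fold change of the 11 was -0.68. The 9 included guca1b (-2.76) and gucy2f (-3.26), which act in the cyclic GMP cycle of phototransduction, and opn1sw1 (-0.18). The markers opn1mw1 (0.07) and crx (-0.11) did not pass. The 3′ minus 5′ difference of the GAPDH control probe sets, a measure of RNA quality or labelling, averaged 0.213 ± 0.0562 in light lesion arrays and 0.0450 ± 0.0219 in control arrays (SD, n = 4 each; two-sided p = 0.0286 by exact permutation, as low as 4 against 4 arrays allow). The same difference for the acta1 control probe sets was -1.54 ± 0.149 in light lesion arrays and -1.39 ± 0.109 in control arrays (exact permutation test, two-sided p = 0.200). The part of RNA quality in the results below was not tested.

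Of the 9 measured genes, mcm2, mcm3 (by 1 of its 2 probe sets), mcm4, mcm5, mcm7, gins2 and cdc6 rose after the light lesion, none fell, and orc1 and mcm6 did not pass the test. The counts rest on limma with Benjamini-Hochberg adjustment over all 15502 probe sets and a threshold of 0.05, and where a gene had several probe sets the one of highest mean stood for it. The 7 of 9 member genes that rose stood against 24.4% of all 8793 genes higher in light lesion arrays, with 20.1% lower and 44.5% passing in either direction. By probe set, 7 of 10 members rose, against 19.5% of all probe sets higher, 20.7% lower and 40.2% passing in either direction. In those 7 every light lesion array lay above every control array, which held for 19.0% of all probe sets. The median log2 fold change of the 9 genes, with mcm3 read from its probe set that rose, was 1.08, and that of all genes was -0.03. Over the 10 member probe sets the median was 0.86, and over all probe sets -0.04. Among the 10 member probe sets 5 rose at least 2-fold with adjusted p under 0.05, which 2.71% of all probe sets did.

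**Figure D1:**
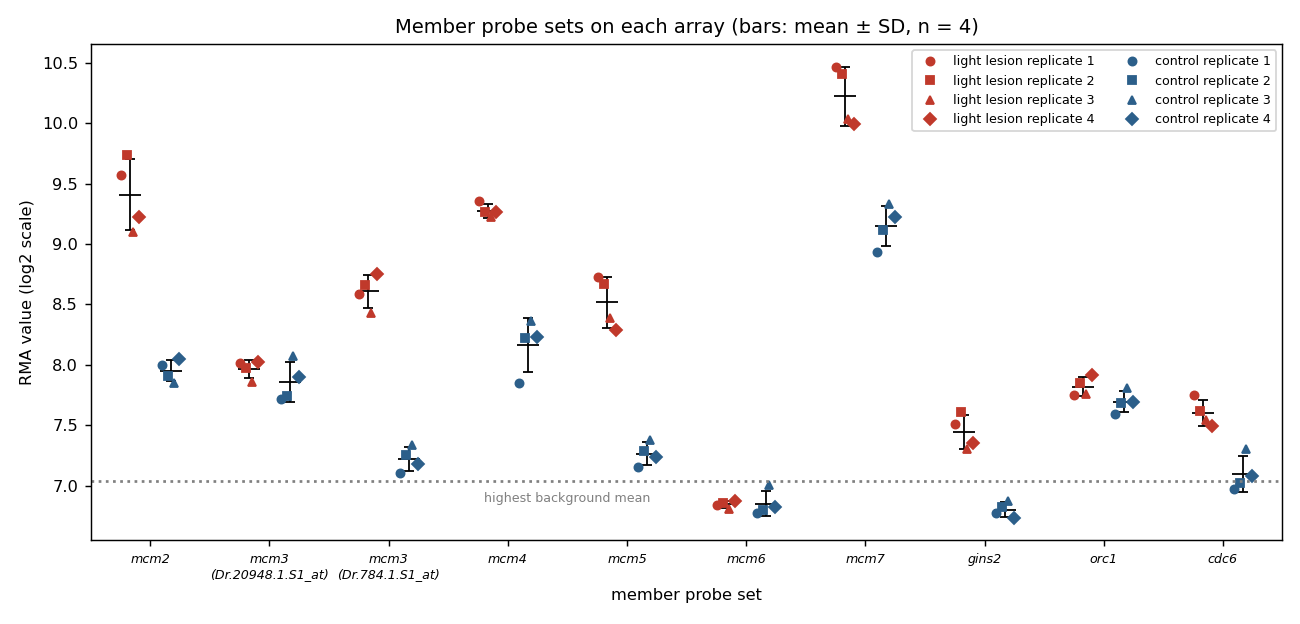
RMA values (y axis, log2 scale) of the 10 member probe sets (x axis) on each array, with 4 light lesion arrays (red, left) and 4 control arrays (blue, right) per probe set; symbols mark the replicate number, and bars the mean ± SD. The groups are apart for mcm2, mcm4, mcm5, mcm7, gins2, cdc6 and the mcm3 probe set Dr.784.1.S1_at, and overlap for orc1, mcm6 and the mcm3 probe set Dr.20948.1.S1_at; the dotted line at 7.04 is the highest mean among background control probe sets.

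The mcm2 transcript, for a subunit of the helicase ring, read 9.57, 9.74, 9.10 and 9.23 in light lesion replicates 1 to 4, against 8.0, 7.91, 7.85 and 8.04 in control replicates 1 to 4 (RMA values, log2 scale). The lowest light lesion array lay 1.06 above the highest control array. The log2 fold change was 1.46 (SE 0.13, limma adjusted p = 2.14e-05), a 2.75-fold rise and the largest point estimate among the member probe sets. Of the 15502 probe sets, 184 had a larger log2 fold change. Light lesion replicates 1 and 2 read higher than replicates 3 and 4, and the light lesion SD of 0.30 was wider than the control SD of 0.09.

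The probe sets of mcm3 disagreed. Dr.784.1.S1_at read 8.58, 8.66, 8.43 and 8.75 in light lesion replicates 1 to 4, against 7.11, 7.25, 7.33 and 7.18 in control replicates 1 to 4. Its groups were well apart, and it rose 2.62-fold (log2 fold change 1.39, SE 0.08, limma adjusted p = 1.35e-06). Dr.20948.1.S1_at read 8.01, 7.97, 7.86 and 8.02 in light lesion replicates 1 to 4, against 7.71, 7.74, 8.07 and 7.90 in control replicates 1 to 4. Control replicate 3 was the highest of all 8 arrays there, the groups overlapped, and the log2 fold change of 0.11 did not pass (SE 0.08, limma adjusted p = 0.327). The changes of the pair differed by -1.28 on the log2 scale, Dr.20948.1.S1_at minus Dr.784.1.S1_at (exact permutation test, two-sided p = 0.0286). Dr.784.1.S1_at stands for the gene in the counts and the comparisons below because its mean over the 8 arrays was higher by 0.0021 (7.914 against 7.912). This choice depended on the light lesion values. Dr.784.1.S1_at averaged 8.61 in light lesion arrays, against 7.97 for Dr.20948.1.S1_at, but 7.22 against 7.86 in control arrays. With Dr.20948.1.S1_at 6 of 9 members rose in place of 7. The median log2 fold change of the 9 genes would then be that of gins2, 0.64 with a control level at background, in place of 1.08. Why the probe sets disagree was not tested.

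The mcm5 transcript, for the ring subunit that with Mcm2 forms the gate through which DNA enters, read 8.72, 8.67, 8.39 and 8.29 in light lesion replicates 1 to 4, against 7.15, 7.29, 7.38 and 7.24 in control replicates 1 to 4. The groups were apart by 0.91, and light lesion replicates 1 and 2 were again the higher ones. The rise was 2.39-fold (log2 fold change 1.26, SE 0.10, limma adjusted p = 1.07e-05).

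The transcripts of mcm4 and mcm7, which with Mcm6 form a core of the ring with helicase activity of its own in vitro, both rose. For mcm4 the values were 9.36, 9.26, 9.22 and 9.26 in light lesion replicates 1 to 4, against 7.85, 8.22, 8.36 and 8.23 in control replicates 1 to 4. The light lesion arrays were close together (SD 0.06), control replicate 1 lay below the other controls (SD 0.22), and the groups did not overlap. The mcm4 rise was 2.16-fold (log2 fold change 1.11, SE 0.10, limma adjusted p = 2.24e-05). For mcm7 the values were 10.46, 10.41, 10.03 and 9.99 in light lesion replicates 1 to 4, against 8.94, 9.11, 9.33 and 9.22 in control replicates 1 to 4. Light lesion replicates 3 and 4 lay nearer to the controls than replicates 1 and 2 but still at least 0.66 above them. The mcm7 rise was 2.11-fold (log2 fold change 1.08, SE 0.13, limma adjusted p = 1.15e-04).

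The remaining ring subunit, mcm6, read 6.84, 6.85, 6.81 and 6.87 in light lesion replicates 1 to 4, against 6.77, 6.80, 7.0 and 6.82 in control replicates 1 to 4. The groups overlapped fully, both means were below 7.04, the highest mean of the background control probe sets, and the log2 fold change was -0.01 (95% confidence interval -0.13 to 0.12, limma adjusted p = 0.945), with a sign that turned under several settings. No member probe set other than that of mcm6 was at background in both groups. At such a level the probe set bears little on mcm6 in either direction. The gene annotated as mcm6l is outside the member rule and was looked at after the mcm6 values were seen. Its brighter probe set averaged 7.65 ± 0.07 in light lesion arrays and 7.74 ± 0.17 in control arrays (SD, n = 4 each) and did not pass (log2 fold change -0.09, limma adjusted p = 0.429), and its dimmer one was at background in both groups.

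Of the factors that load and activate the ring, gins2 and cdc6 rose and orc1 did not pass. The gins2 transcript, for a GINS subunit, read 7.51, 7.61, 7.30 and 7.35 in light lesion replicates 1 to 4, against 6.77, 6.83, 6.87 and 6.73 in control replicates 1 to 4. All control arrays lay under the highest background mean and all light lesion arrays above it, and the measured means differed by 0.64 on the log2 scale (SE 0.07, limma adjusted p = 1.02e-04). With the control arrays set to the highest background mean, the rise of gins2 was at least 1.33-fold, and its differences from other genes below rest on the measured control level.

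The cdc6 transcript, for the ATPase that works with the origin recognition complex in loading the ring, read 7.75, 7.62, 7.54 and 7.50 in light lesion replicates 1 to 4, against 6.97, 7.02, 7.31 and 7.08 in control replicates 1 to 4. The groups were apart by 0.19, with control replicate 3 the nearest to the light lesion arrays, and the rise was 1.42-fold (log2 fold change 0.51, SE 0.08, limma adjusted p = 9.89e-04). The orc1 transcript, for the largest subunit of the origin recognition complex, read 7.75, 7.85, 7.76 and 7.92 in light lesion replicates 1 to 4, against 7.59, 7.68, 7.80 and 7.69 in control replicates 1 to 4. Control replicate 3 lay above light lesion replicates 1 and 3, so the groups overlapped. The log2 fold change of orc1 was 0.13 (95% confidence interval -0.01 to 0.26, limma adjusted p = 0.129). Its upper bound lay under the lower bounds of the 5 ring subunits that rose, the lowest of which was 0.79 (mcm7). These 5 were picked by their rise, so the separation follows in part from the choice. The interval of the mcm3 probe set that did not pass, Dr.20948.1.S1_at (-0.08 to 0.29), overlapped that of orc1.

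**Figure D2:**
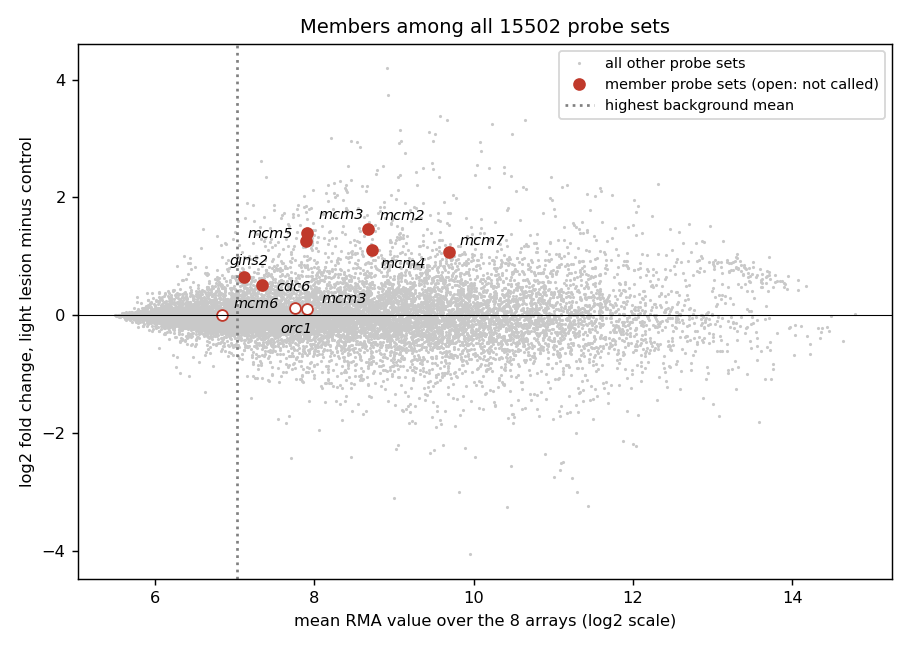
Log2 fold change, light lesion minus control (y axis), against the mean RMA value over the 8 arrays (x axis, log2 scale) for all 15502 probe sets (grey) and the 10 member probe sets (red; filled where adjusted p was under 0.05). The 5 highest member probe sets lie between 1.08 and 1.46, gins2 (control level at background) and cdc6 at 0.64 and 0.51, and mcm6, left of the dotted background line, at -0.01.

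The members did not rise by the same amount. Differences between the log2 fold changes were computed for all 36 pairs of the 9 genes, each tested by exact permutation (two-sided) of the arrays in all 70 assignments, with Benjamini-Hochberg adjustment over the 36. Of these, 26 differed at adjusted p = 0.0396, the value that belongs to the smallest possible raw p. All 20 pairs that set mcm2, mcm3, mcm4, mcm5 or mcm7 against gins2, cdc6, orc1 or mcm6 were among them, with differences of 0.43 (mcm7 minus gins2) to 1.46 (mcm2 minus mcm6). These 2 sets were divided by the size of the measured rise, so large differences between them follow from the division. Within the 5 ring subunits that rose, 1 of 10 pairs passed, mcm5 minus mcm7 at 0.18 (SE 0.05), although the wider gap of mcm2 minus mcm7, 0.38 (SE 0.13), did not (exact permutation test, adjusted p = 0.0762). The mcm5 to mcm7 gap was narrow but steady across arrays, with an SD of 0.04 among light lesion arrays and 0.10 among control arrays. The changes of gins2 and cdc6 differed by 0.13 (SE 0.08), which did not pass (exact permutation test, adjusted p = 0.193), while both exceeded that of orc1, by 0.52 and 0.38. With the other mcm3 probe set, 28 of 36 pairs passed. The log2 fold change of mcm3 was then 0.11, under those of gins2 (0.64) and cdc6 (0.51). By that probe set mcm3 would not belong to the set of larger rises, so the 28 pairs do not describe the same 2 sets. The other pair counts in this paragraph, within and between the sets, rest on the mcm3 probe set that rose. Since mcm6 was at background in both groups, its pairs set the others against a probe set without a measured level; without mcm6, 18 of 28 pairs passed, all 15 between the 2 sets of genes among them, with differences of 0.43 to 1.33 (exact permutation test, adjusted p = 0.0444). Without mcm6 and gins2, the 12 pairs at the smallest possible p, among them all 10 between the sets, reached an adjusted p of 0.05, which is the threshold itself, so that none passed. The control mean of cdc6 (7.09) also lay close to the highest background mean, while that of orc1 (7.69) was above those of mcm3 (7.22) and mcm5 (7.26); the part of level in these differences was not tested.

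**Figure D3:**
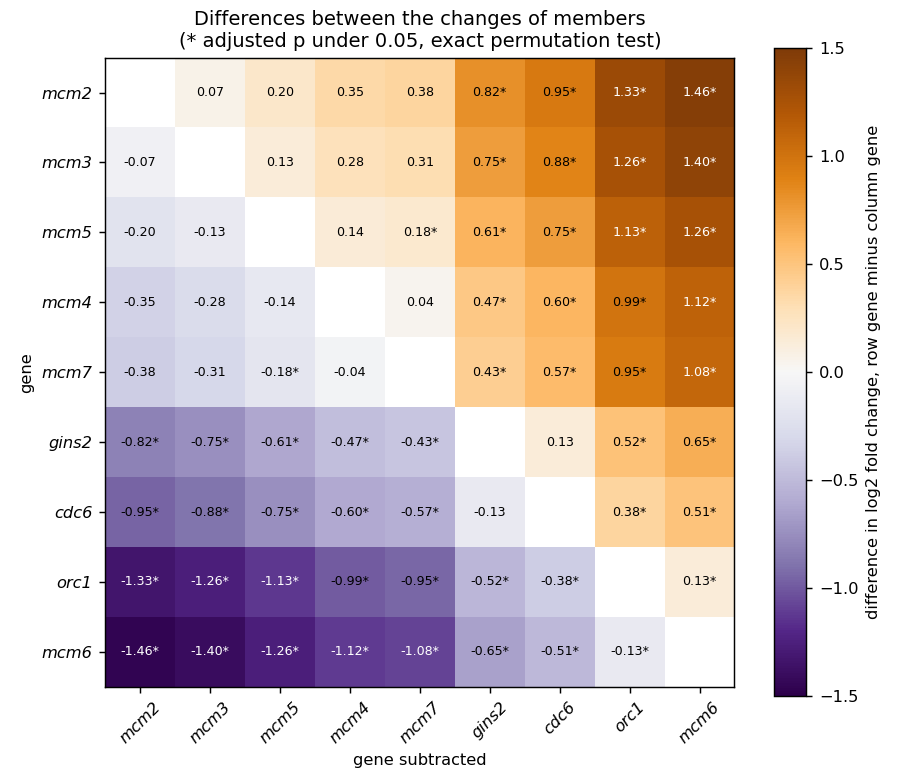
Difference in log2 fold change (light lesion minus control) between each pair of members, row gene minus column gene, with colour and number giving the difference and an asterisk an adjusted p under 0.05 (exact permutation test, 36 pairs). Genes are ordered by the size of their measured rise. The block of mcm2, mcm3 (probe set Dr.784.1.S1_at), mcm5, mcm4 and mcm7 against gins2, cdc6, orc1 and mcm6 is filled with asterisks. Large differences in this block follow from the ordering by rise, and without mcm6 and gins2 0 of 21 pairs passed. Among the 5, mcm5 minus mcm7 at 0.18 has the sole asterisk.

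The proliferation marker pcna, the clamp that tethers DNA polymerases, served as a yardstick. It read 12.74, 12.76, 12.65 and 12.72 in light lesion replicates 1 to 4, against 11.31, 11.33, 11.33 and 11.44 in control replicates 1 to 4 (log2 fold change 1.36, SE 0.05). The changes of mcm2 and mcm3 lay 0.10 and 0.03 above that of pcna, with SEs of 0.13 and 0.08 (exact permutation test, adjusted p = 0.579 and 0.714 over 9 comparisons). Those of mcm5, mcm4 and mcm7 differed from it by -0.11, -0.25 and -0.29 (exact permutation test, adjusted p = 0.514, 0.171 and 0.154). The differences of gins2 (-0.72), cdc6 (-0.85), orc1 (-1.24) and mcm6 (-1.37) each had the smallest possible exact permutation p of 0.0286, but none of the 9 passed after adjustment (adjusted p = 0.0643 for these 4). With 9 comparisons at this array number, a difference can pass only if at least 6 of them reach the smallest p, so this count does not show that the members moved like pcna.

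The wider set of origin licensing and firing genes moved mostly upward. Of 21 measured genes on this list, 18 rose, 1 fell and 2 did not pass, with a median log2 fold change of 0.30, beside -0.03 for all genes and a 44.5% share of genes called. The origin recognition subunits orc2, orc3, orc4, orc5 and orc6 all passed, unlike orc1, with orc4 (0.57, limma adjusted p = 0.00219), orc3 (0.57, limma adjusted p = 6.35e-04) and orc6 (limma adjusted p = 4.81e-05) furthest apart. Whether their changes differ from that of orc1 was not tested. For orc6 the light lesion arrays read 6.94, 7.13, 6.98 and 6.93, against 6.13, 6.37, 6.26 and 6.40 in controls, so that every control array and 3 of 4 light lesion arrays were under the highest background mean, and no fold change is given. For orc4 they read 8.77, 8.83, 8.75 and 8.66, against 7.93, 8.06, 8.50 and 8.21 in controls, where replicate 3 came closest to the lesioned retinas. For orc3 they read 7.74, 7.46, 7.38 and 7.37, against 6.90, 7.05, 6.88 and 6.86 in controls, with no overlap and a control mean at background. The difference of orc5 was 0.29 and that of orc2 was 0.19, with overlapping orc2 groups and an orc2 control level at background. With the control arrays set to the highest background mean, the rise of orc2 was at least 1.02-fold.

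The other GINS subunits followed gins2 in direction, with gins4 at 0.48 (limma adjusted p = 0.00121, control mean at background) and gins3 at 0.45. The loading factor cdt1 rose by 0.30, and cdc7, the catalytic subunit of the kinase that activates the ring, by 0.26. The binding protein of the MCM ring, mcmbp, rose by 0.47 as measured, against a control level at background. With the control arrays set to the highest background mean, the rise of mcmbp was at least 1.05-fold. The genes of geminin (gmnn), which inhibits Cdt1, of Cdc45 (cdc45), the helicase partner of GINS, and of the GINS subunit gins1 passed in the upward direction with both group means at background (limma adjusted p = 0.0370, 0.0235 and 0.0172), so no fold change is given. The largest rise on this list was that of cdk2, a kinase that drives entry into S phase, at 8.20, 8.25, 7.88 and 7.87 in light lesion replicates 1 to 4, against 6.77, 6.52, 7.30 and 6.98 in control replicates 1 to 4 (log2 fold change 1.16, SE 0.16, limma adjusted p = 3.49e-04), with a control mean under the highest background mean. The calls of gmnn, cdc7, orc2, cdc45 and gins1 were lost when certain single arrays were left out, with the highest adjusted p at 0.0944, 0.102, 0.0700, 0.0654 and 0.0536.

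The gene that fell was topbp1, which helps recruit Cdc45 and GINS to the ring and also serves the replication checkpoint. It read 7.28, 7.26, 7.22 and 7.21 in light lesion replicates 1 to 4, against 7.50, 7.55, 7.60 and 7.55 in control replicates 1 to 4, with no overlap (log2 fold change -0.31, SE 0.04, limma adjusted p = 3.54e-04). The list members that did not pass were mcm9, a relative of the ring subunits with a role in recombination (-0.12, limma adjusted p = 0.445), and rif1, which restrains origin firing (-0.19, limma adjusted p = 0.0863, with 3 further probe sets at -0.11 to -0.05 that did not pass). Of the 21 genes, 11 had a control mean at or under the highest background mean, and 6 of them, orc6, gmnn, gins1, cdc45, ccne1 and ticrr, were under it in both groups; the list median of 0.30 includes their measured differences.

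**Figure D4:**
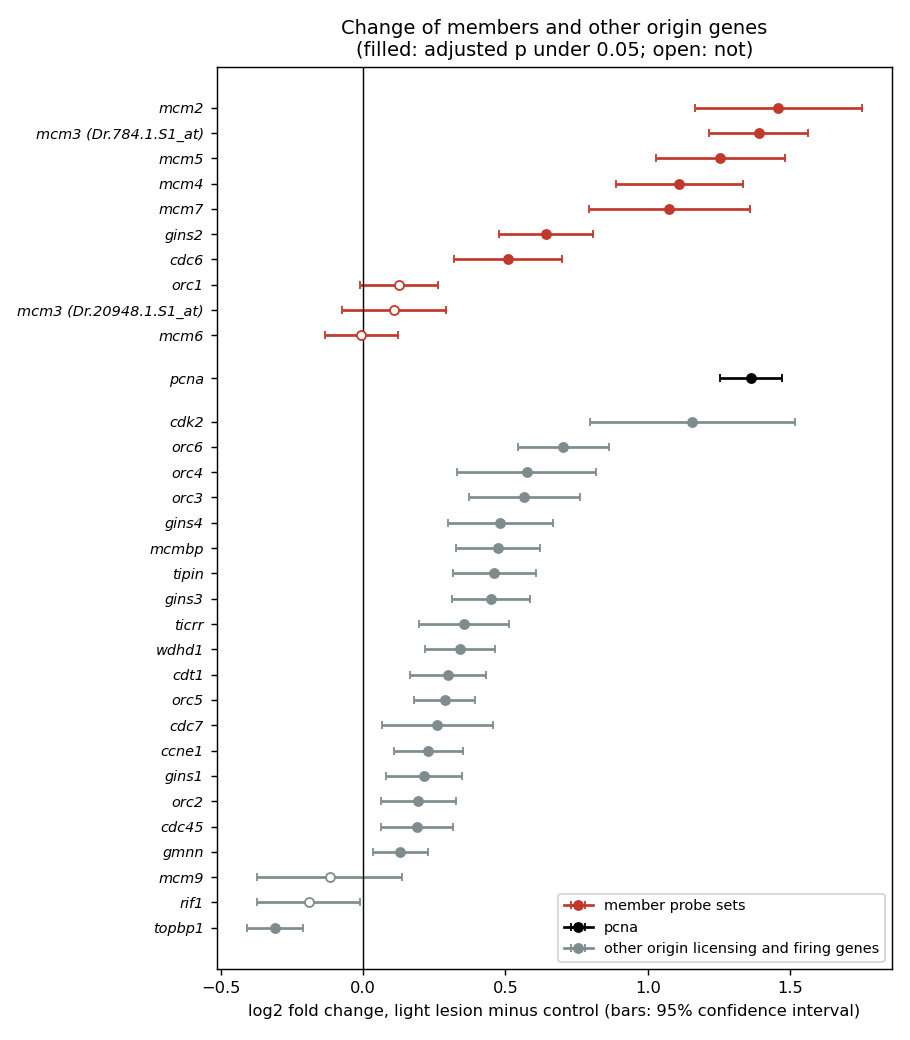
Log2 fold change, light lesion minus control (x axis), with 95% confidence intervals for the 10 member probe sets (red), pcna (black) and the other origin licensing and firing genes (grey), one per line; filled points passed adjusted p under 0.05. The ring subunits mcm2, mcm3 (the probe set that rose), mcm5, mcm4 and mcm7 lie between 1.08 and 1.46. The other mcm3 probe set, which did not pass, lies at 0.11. On the grey list cdk2 lies highest at 1.16 and topbp1 lowest at -0.31.

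Beyond origins, the list of DNA replication genes, which holds pcna, had 31 measured members: 26 rose, 1 was lower and 4 missed the threshold, and the median log2 fold change was 0.41, against 24.4% of all genes higher and 44.5% called either way. The calls of 3 of them, rpa1, rfc3 and rfc5, were lost when certain single arrays were left out. The largest rises were those of the ribonucleotide reductase gene rrm2l (2.95, SE 0.16), thymidylate synthase tyms (1.81, SE 0.10) and uhrf1 (1.81, SE 0.07, with a control level at background), which keeps DNA methylation through replication. The fall was that of rfc1, which encodes the largest clamp loader subunit (-0.52, SE 0.07). The mean profile of the 6 ring subunits over the 8 arrays, each centred on its control mean, rose by 1.05. This was less than any of the 5 that rose, because the mean includes the mcm6 probe set, which was at background in both groups. The genes outside the member list nearest to this mean profile, by root mean square difference over the 8 arrays, were ccnb1 (0.0741), kif11 (0.0798), clic1 (0.0842), plk1 (0.0845), ctsa (0.0923) and mmp14b (0.0975). Of these, ccnb1 (cyclin B1), kif11 (a spindle motor) and plk1 (a mitotic kinase) act in mitosis, ctsa encodes a lysosomal cathepsin and mmp14b a membrane-bound metalloproteinase. This ranking is a description without a test and depends on the size of the group difference: with mcm3 and mcm6 left out of the mean, a choice made after the data were seen, none of these 6 genes was among the 6 nearest.

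**Figure D5:**
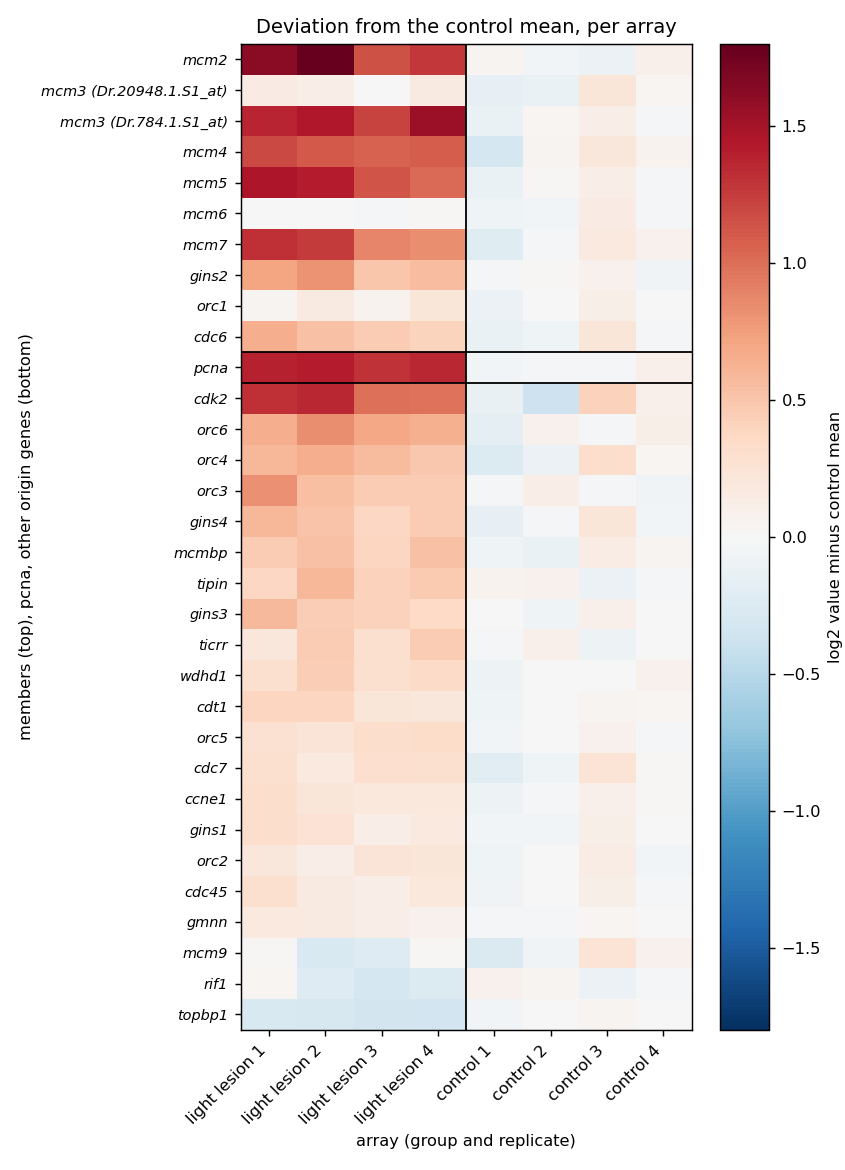
Log2 value minus the gene's control mean (colour) on each array (columns, 4 light lesion arrays left and 4 control arrays right) for the 10 member probe sets, pcna and the other origin licensing and firing genes (rows). The member rows reach 1.79 (mcm2, light lesion replicate 2), control replicate 3 is the highest control for 9 of the 10 member probe sets, and the topbp1 row at the bottom is lower in all 4 light lesion arrays.

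Markers of several cell types moved with the same groups, to be read beside the 24.4% of all genes that were higher and the 20.1% that were lower in light lesion arrays. Of 13 markers of microglia and leukocytes, 11 rose and 1 fell, including coro1a (1.35) and cd74b (0.72), and their mean log2 level ran from 9.05 to 9.22 in light lesion arrays and from 8.61 to 8.70 in control arrays; by control mean 3 of them were at background. Of 8 Müller glia markers 4 rose and 2 fell, with fabp7a at 2.23 and cahz at -0.64, and mean levels of 11.43 to 11.51 in light lesion arrays and 10.98 to 11.08 in control arrays. The median log2 fold change of these 8 was only 0.11, and fabp7a, which rose most, weighs heavily in their mean levels. Among 6 markers of the pigment epithelium and pigment cells 4 rose, tspan36 (3.25) and pmelb (2.18) among them, with mean levels of 10.61 to 10.84 in light lesion arrays and 9.48 to 9.52 in control arrays. Of 9 inner retinal neuron markers 6 fell, such as gad1b (-0.42) and gad2 (-0.66), with mean levels of 10.53 to 10.87 in light lesion arrays and 11.12 to 11.31 in control arrays. Of 5 blood markers 3 fell, but hbba2 was at background in both groups and nt5c2l1 in light lesion arrays, and the brightest, hbaa1, averaged 10.99 in light lesion arrays and 11.26 in control arrays and did not pass (limma adjusted p = 0.167). The blood list had mean levels of 7.39 to 7.57 in light lesion arrays and 7.68 to 7.77 in control arrays. The part of these cell types in the rise of the member genes was not tested, and more cells of a type cannot be told apart from more RNA per cell in whole-retina RNA.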

How the data were processed

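Whole-retina RNA was measured on 4 arrays of the light lesion group and 4 of the control group, grouped by sample title. For each probe set and array the file holds 1 log2 value deposited by the authors; RMA is named in the submitters' processing notes, and the version and settings behind it were not given in the sources used here. That the scale is log2 was read from the deposited range (5.47 to 14.89). The number of arrays limits the precision. Of 15617 probe sets, 115 were array controls and 15502 were tested; 10795 carried 1 gene symbol (1 updated through RefSeq's gene table), 135 several and the others none. No genome build is named, so coordinates are not printed.

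Groups were compared with limma (version 3.58.1, R 4.3.3; lmFit, eBayes, no covariate, two-sided). Log2 fold changes subtract the control mean from the light lesion mean; errors are SDs over 4 arrays or limma's SE. Background is the highest mean (7.04) among 27 Bacillus subtilis control probe sets. On simulated data for this comparison over 15502 probe sets, 79% of 100 probe sets changed by 0.5 and 97% of 100 changed by 1 were called, and 1.68% of calls were unchanged probe sets. Only these probe sets were changed, all upward and with independent noise, whereas 6232 were called in the data. The rates therefore need not hold for the real arrays. Differences between genes or between probe sets, taken on each array, were tested by exact permutation (scipy 1.17.1). The alternatives were the replicate block, a second normalization, median centring, a filter on dim probe sets, another variance prior, array weights, a stricter threshold, other probe sets of a gene and the omission of each array.

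Members and lists were chosen with earlier results of these data known. Named by rule were all members; pcna; the 5 largest non-overlapping changes and every fall on the origin list; the 3 largest rises and every fall on the replication list; up to 2 markers of smallest p per cell type; and the 6 nearest profiles. Other origin genes were named after their values were seen.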

Additional observations from a re-analysis of the deposited data

How the results depend on the processing

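The 7 member genes called higher kept adjusted p under the threshold and their direction with the replicate number as a block (7 of 9 genes called), a second quantile normalization, median centring, removal of the dimmest 25% of probe sets, a trended and robust prior, array weights, a threshold of 0.01, averaged probe sets and omission of each array (7 of 9 in all). With the mcm3 probe set of lower mean, alone or as the lowest probe set of every gene, 6 were called. Over omissions of 1 array the log2 fold change ranged from 1.35 to 1.56 for mcm2, 1.00 to 1.15 for mcm7 and 0.46 to 0.58 for cdc6. The mcm6 difference, -0.01, turned positive with a second quantile normalization (0.0218), median centring (0.000862), array weights (0.0179), without control replicate 3 (0.0448) and without light lesion replicate 3 (0.00577), and omissions of 1 array ranged from -0.0309 to 0.0448; it passed in none of these, and the cause was not tested. The probe sets of orc1 and Dr.20948.1.S1_at of mcm3 passed under none of the settings (lowest adjusted p = 0.0543 and 0.0572). Over the array 6232 probe sets were called, 5638 with the replicate block, and 5256 to 6239 without 1 array. On the origin list 19 of 21 genes were called, 16 with the replicate block and 14 to 19 without 1 array, and on the replication list 27 of 31, 24 with the replicate block and 24 to 27 without 1 array. The replicate numbers showed no sign of pairing the arrays. Deviations of same-numbered arrays from their group means correlated at -0.21, 0.28, -0.24 and 0.17, and no light lesion array correlated best with its own number. With so few arrays this cannot exclude that same-numbered samples were handled together. Of 36 member pairs 26 differed, 24 after a second quantile normalization, 26 after median centring and 28 with averaged probe sets; without mcm6 18 of 28 passed, and without mcm6 and gins2 0 of 21, with 12 at an adjusted p of 0.05, since fewer pairs at the smallest p remain. The comparisons with pcna cannot show stability at this number of arrays. Pair tests without 1 array were not run, since 3 against 4 arrays allow no exact p under 0.0571. The other probe set of mcm3, the pairs without mcm6 or gins2 and the profile of 4 subunits were added after the data were seen. Probe sets near background limit what can be said of mcm6, and of gins2 in controls.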

Other observations

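Within the light lesion group the arrays differed in a shared way. For 6 of the 10 member probe sets, all among the 7 that rose, replicates 1 and 2 were the 2 highest of the 4 light lesion arrays. The same held for 17.8% of all 15502 probe sets. For mcm4, one of the 6, this was marginal, with light lesion replicate 2 at 9.264 and replicate 4 at 9.262. The widest steps were those of mcm2, with 1.62 and 1.79 above the control mean in light lesion replicates 1 and 2 and 1.15 and 1.28 in replicates 3 and 4, and of mcm7, with 1.31 and 1.26 in replicates 1 and 2 and 0.88 and 0.84 in replicates 3 and 4. The mcm3 probe set Dr.784.1.S1_at was highest in replicate 4 (1.54). On the same light lesion arrays 1 to 4 the mean level of the photoreceptor markers was 12.17, 12.20, 12.39 and 12.27, and that of the microglia and leukocyte markers 9.07, 9.22, 9.05 and 9.19. This was noticed after the values were seen and was not tested. Among controls, replicate 3 was highest for 9 of 10 member probe sets, against 36.4% of all probe sets.

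With mcm3 and mcm6 left out of the shared profile, a choice made after the data were seen, the genes nearest to the mean of mcm2, mcm4, mcm5 and mcm7 (rise 1.22) were nasp (root mean square difference 0.0761), a histone chaperone, prim1 (0.0819), the catalytic primase subunit, cdca8 (0.0942), ddx39ab (0.0977), slc4a2a (0.0979) and ncapg (0.0982), a condensin subunit. None of these was among the 6 nearest to the mean of all 6 subunits.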
